A study of Mus musculus with 6 samples.

Results

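Marrow cells grown for 4 days with Flt3 ligand (Flt3L) were compared with fresh marrow at day 0 across all genes of an RNA-seq series. The comparison used 4 of the 6 libraries of the series, 2 from day 0 (numbered II and III) and 2 from day 4 (numbered I and II), chosen by their labels alone. All came from bone marrow of male C57BL/6J mice, a wild-type inbred strain, with no other genotype or treatment named and no age given. Day 0 libraries were labelled as bone marrow with no time in culture. Day 4 libraries were labelled as common myeloid progenitors (CMP), after growth in RPMI medium with serum and a supernatant that contained Flt3L, secreted by a transfected SP2/0 line. The day 4 labels state that every live cell was taken, so the day 4 libraries hold the whole culture, and no sort for CMP is named. Nothing in the labels says that libraries of a day came from separate mice or cultures, and the spread that p-values measure is that of these samples alone and may be technical.

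Marrow is a mixture in which red cell precursors and granulocytes at all stages far outnumber stem and progenitor cells, with monocytes, B lineage cells and stroma beside them. Flt3L acts through the receptor tyrosine kinase Flt3 on early progenitors and is known for driving them toward dendritic cells. Red cell precursors depend on erythropoietin, and neutrophils fill their granules in a fixed order, with primary granule proteases made first, then secondary and tertiary granule proteins. In such bulk samples fewer cells of a type and less RNA per cell cannot be told apart.

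The deposited values are RPKM, reads per kilobase of gene scaled to the library's total, and whole reads could be recovered from them. RPKM values of a gene are given for day 0 II and III and, after "then" or "against" or "to", for day 4 I and II. Day 0 held 322837 and 157797 reads in genes, and day 4 held 1365635 and 3852628. For a gene 1 kb long, 3 reads were worth 9.29 and 19.01 RPKM at day 0 against 2.197 and 0.779 RPKM at day 4. Fewer than 3 reads were found for 38.3% and 51.3% of the 21761 genes at day 0 and for 15.1% and 23.1% at day 4. A gene was therefore tested only if its mean RPKM over the 4 libraries reached the worth of 3 of its reads in the shallowest library, which left 8098 genes. Libraries differed within a day as well. Pearson correlation of log2(RPKM + 1) across the tested genes, which are not independent replicates, was 0.766 for the day 0 pair and 0.924 for the day 4 pair, and 0.571 to 0.698 across days. Day 0 III stood apart in granulocyte genes: 25 granulocyte proteins took 1.36% of its reads (exact Clopper-Pearson 95% interval 1.31 to 1.42) against 7.27% in day 0 II and 7.33% and 5.87% at day 4. Such intervals, and the floors, hold for counting error alone, since PCR copies of 1 molecule may be counted apart. Odorant, vomeronasal and trace amine receptor genes served as a low reference, and whether these cells use any of them was not tested. Pooled, the 1440 of them under the floor gave 2.90 and 4.39 RPKM at day 0, then 2.92 and 0.574 RPKM at day 4.

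Between day 0 and day 4, 904 genes rose, 11.2% of the 8098 tested, and 463 fell, 5.72% (limma on log2(RPKM + 1), Benjamini-Hochberg adjusted p under 0.05). By mean level, 0.781% of the 3583 genes under 10 RPKM rose and 3.60% fell, against 35.2% and 8.28% of the 435 genes at 100.0 RPKM or more. Shares of all tested genes set beside the gene lists below are not matched for level. Together 16.9% of the tested genes were called, and in all 1367 both libraries of one day lay above both of the other. The median size was a log2 fold change of 2.23 among genes that rose and -2.34 among those that fell, and over all tested genes the median was -0.04. A change of at least 4-fold was seen in 576 genes that rose and 339 that fell, and of at least 16-fold in 48 and 18. Voom on the recovered reads and thinning all libraries to the smallest total gave 0 calls each, with 1858 and 1816 genes at an unadjusted p under 0.05. The split also moved with scaling, from 66.1% of called genes higher as tested to 79.8% under median-ratio scaling (1044 higher and 265 lower), which moved the median of all genes from -0.04 to 0.56. The share was 60.3% with totals counted without globins and 56.25% under quantile normalization (261 higher and 203 lower). Without day 4 II 331 genes rose and 122 fell, without day 4 I 479 rose, and without day 0 II 707 fell. Counts of the gene lists below moved too. Of 25 lists with at least 2 rises, the count was lower by over 1.5 times in 22 under quantile normalization, in 18 with no floor and in 20 without day 4 II. Of 15 lists with at least 2 falls, it was lower by as much in 11 under median-ratio scaling and in 13 with no floor. With 2 libraries a day an exact permutation of labels cannot go below p = 0.33, so every p here is limma's.

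**Figure D1:**
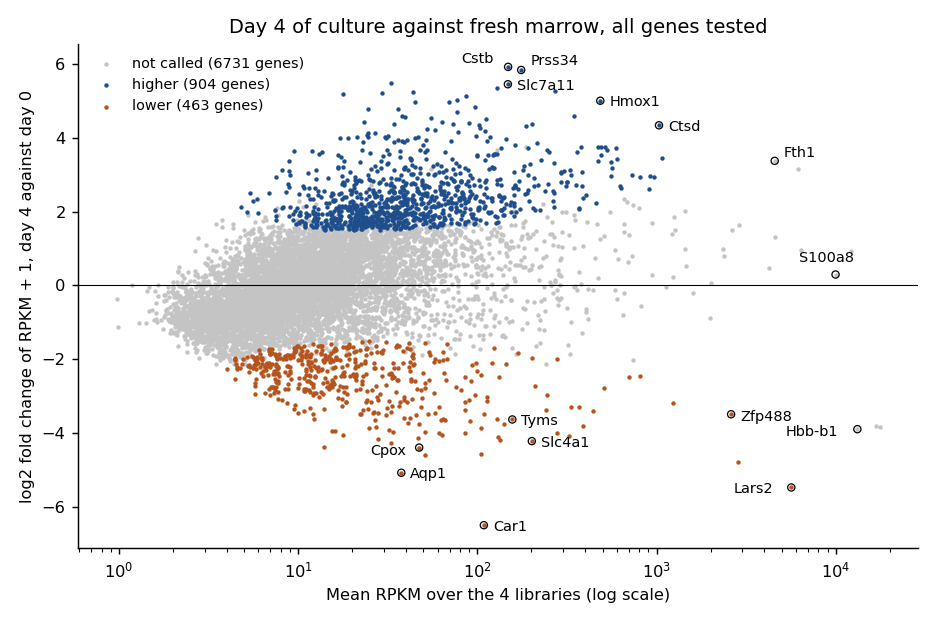
Each point is one of the 8098 tested genes, with its mean RPKM over the 4 libraries (log scale) on the x axis and its log2 fold change of RPKM + 1, day 4 against day 0, on the y axis. The 904 genes called higher are blue, the 463 called lower are orange and the others grey, and named genes are ringed. Car1 lies lowest at -6.49, Cstb highest at 5.92, and the abundant genes Hbb-b1 and Fth1 lie far from 0 without passing the test.

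The CMP label was set against marker genes first. CMP are early cells defined by the stem cell factor receptor Kit and the surface protein Cd34, and neither passed the test. Kit stood at 10.6 and 21 RPKM at day 0, against 8.34 and 18.1 RPKM at day 4 (log2 fold change -0.26 ± 0.56, ± SE here and below, limma adjusted p = 0.778). Cd34 stood at 7.79 and 9.56 then 11.6 and 6.13 RPKM (adjusted p = 0.982), and for both genes the days overlapped. Flt3, the receptor for the cytokine of the culture, stood at 6.78 and 17.3 RPKM at day 0, against 5.61 and 1.7 RPKM at day 4 (-1.50 ± 0.63, adjusted p = 0.114), the days not overlapping but the test not passed. Of 23 stem and early progenitor genes 6 could be tested, and 0 rose and 0 fell, beside 11.2% and 5.72% of all tested genes. With 6 members these counts cannot be told from those shares. Their median log2 fold change was -0.52, and 0.125 under median-ratio scaling. The most abundant day 4 transcripts were instead those of granulocytes and iron storage. Ngp, a neutrophil granule protein, reached 14702 and 11460 RPKM at day 4, against 19983 and 2325 RPKM at day 0. S100a8, which neutrophils carry in their cytosol, reached 10268 and 7097 RPKM, against 20102 and 2409 RPKM. For both genes day 0 II lay above and day 0 III below the 2 day 4 libraries, and neither passed the test (adjusted p = 0.743 and 0.922). The genes that define the label were thus no higher than in fresh marrow by the test, and granulocyte transcripts led, so the libraries are called day 4 cultures here.

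Genes of red cells are described first. Of 20 tested genes of the red cell membrane and globins 15 fell and 0 rose, with a median log2 fold change of -2.70 beside -0.04 for all genes tested, and in all 20 both day 0 libraries lay above both day 4 libraries. Medians over the tested members were 48 and 66.8 RPKM at day 0, against 8.6 and 9.29 RPKM at day 4. Aqp1, a water channel, had 58.4 and 89.5 RPKM at day 0, against 1.86 and 0.658 RPKM at day 4 (-5.07 ± 0.54, adjusted p = 3.63e-05). Slc4a1, the anion exchanger band 3, had 274 and 493 then 18.5 and 19.2 RPKM (-4.22 ± 0.57, adjusted p = 0.000176). The membrane skeleton fell with them: Ank1, the ankyrin that anchors band 3, went from 17.4 and 44.7 to 1.54 and 0.421 RPKM, and the spectrin chain Sptb had a log2 fold change of -3.27. Ermap and the Rh proteins Rhd and Rhag, blood group proteins of the red cell surface, fell, with log2 fold changes of -3.48, -3.08 and -2.41. Epor, the erythropoietin receptor, had 18.1 and 21.6 RPKM at day 0, against 2.86 and 2.15 RPKM at day 4 (-2.58 ± 0.54, adjusted p = 0.00348).

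Globin transcripts showed the same order of libraries without passing the test. Hbb-b1, a beta globin, had 30798 and 18750 RPKM at day 0, against 1553 and 1682 RPKM at day 4 (-3.89 ± 1.46, adjusted p = 0.0766). Hba-a2, an alpha globin, had 47071 and 19527 then 2047 and 2182 RPKM (-3.84 ± 1.58, adjusted p = 0.105). For both genes the day 0 libraries lay at least 8 times above the day 4 libraries. Globins as a group took 9.67% and 5.02% of reads at day 0 and 0.476% and 0.490% at day 4. Near-identical globin copies can share reads, so the split among copies is uncertain.

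Of 20 tested genes of heme synthesis and red cell enzymes 8 fell and 2 rose, with a median of -1.54. Car1, a carbonic anhydrase of red cell precursors, showed the largest fall of any named gene, from 277 and 155 to 1.68 and 0.991 RPKM (-6.49 ± 0.53, adjusted p = 2.18e-06), which rested on 117 and 32 reads at day 0 and 3 and 5 at day 4. Enzymes of the heme pathway fell at several steps: Cpox, coproporphyrinogen oxidase, from 70.9 and 112 to 3.41 and 3.17 RPKM (-4.39 ± 0.51), Alad at an early step (-2.76) and Fech, which inserts the iron, from 113 and 154 to 17.5 and 19.9 RPKM (-2.76 ± 0.53, adjusted p = 0.0019). Alas2, the erythroid form of the enzyme that starts the pathway, fell from 358 and 179 to 64.1 and 76.3 RPKM (-1.84 ± 0.61, adjusted p = 0.0443). Its housekeeping counterpart Alas1 moved the other way, from 35.7 and 19.9 to 112 and 197 RPKM (2.43 ± 0.56, adjusted p = 0.00664). Slc25a37, the mitochondrial iron importer of red cell precursors, lay lower in both day 4 libraries without passing the test (log2 fold change -1.69). The count of 8 was 3 without day 4 I and 5 without day 4 II.

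Of 12 tested transcription factors of the erythroid program 7 fell and 1 rose, with a median of -2.09. Klf1, the activator of adult globin genes, had 68.7 and 33 RPKM at day 0, against 3.82 and 2.2 RPKM at day 4 (-3.63 ± 0.54, adjusted p = 0.000351). Gata1, the master factor of the lineage, had 27.7 and 60 then 1.92 and 7.1 RPKM (-3.10 ± 0.59, adjusted p = 0.00185), and its cofactor Zfpm1 fell with a log2 fold change of -3.33. Hemgn, an erythroid nuclear protein, fell from 56.1 and 66 to 2.82 and 3.4 RPKM (-3.91 ± 0.51). Tal1 and Lyl1, related factors that act with Gata1 and in progenitors, also fell (-2.30 and -1.88). Nfe2, which serves megakaryocytes and also other blood cells, was the member that rose, from 63.1 and 41.8 to 196 and 145 RPKM (1.69 ± 0.57, adjusted p = 0.0479). That call was lost without either day 4 library.

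**Figure D2:**
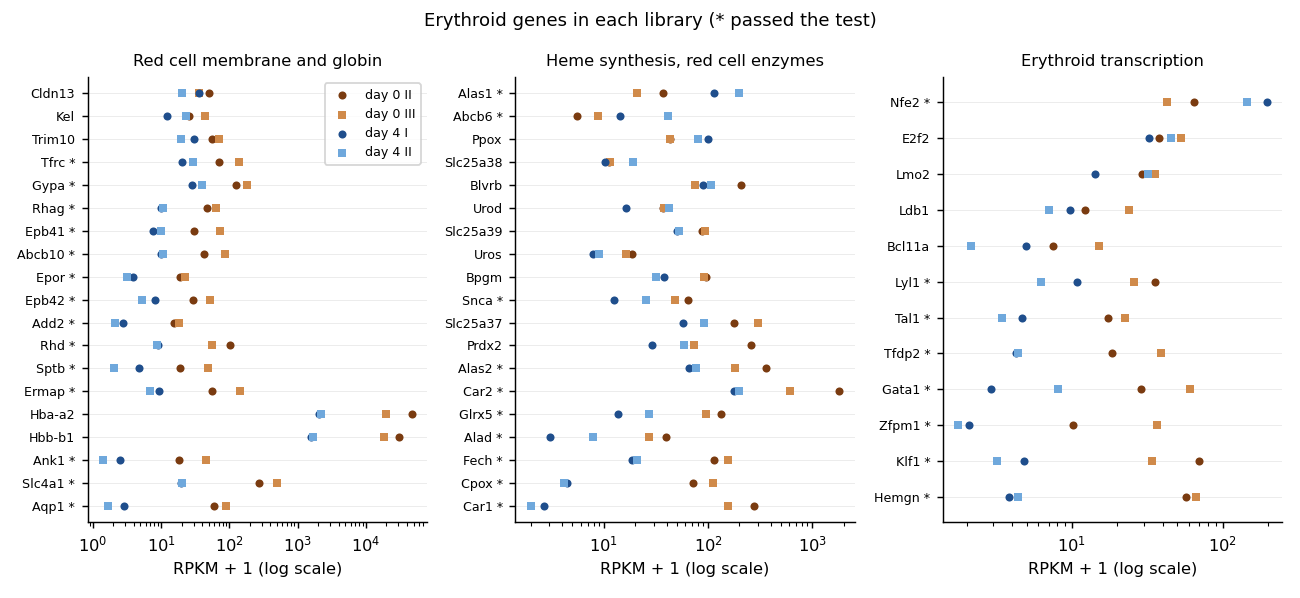
RPKM + 1 (log scale, x axis) of 19 of 20, 19 of 20 and 12 of 12 tested members of the 3 erythroid lists (rows, in order of log2 fold change) in day 0 II, day 0 III, day 4 I and day 4 II, one symbol per library. A star marks members that passed the test, 14, 10 and 8 of those drawn from left to right. In the left panel every day 0 symbol lies to the right of every day 4 symbol of the same gene.

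Promoter sequence was read for these genes because they moved together. RefSeq promoter windows of assembly GRCm38.p6 (250 bases before to 50 bases after a start, matched by gene ID for 6539 of the 8098 tested genes) were searched on both strands for GATAA, the core bound by GATA factors. A match was found in 47.4% of 19 promoter windows of the membrane and globin list, 16.7% of 18 windows of the heme and enzyme list and 31.25% of 16 windows of the transcription factor list, against 16.3% over all tested genes and 25.4% over all promoters. Genes called lower as a whole held it in 23.6% of windows and genes called higher in 17.9%. With the longer form AGATAA or TGATAA the shares were 47.4%, 16.7% and 31.25% for the 3 lists. They were 10.5% for tested genes, 18.6% for all promoters, 18% for genes called lower and 11.2% for genes called higher. A match is only a run of letters, not a bound site. The 150 bases before the start are shown, 5′ to 3′ on the gene's strand, for the 4 called genes of the 3 erythroid lists with the smallest adjusted p among those with the core in that stretch. These 3 lists held the core there in 8 of 28 windows of called genes, 28.6% against 7.74% over all tested genes and 13.3% over all promoters. Capitals mark it (TTATC is the same core on the other strand).
Cpox (chr16:58670058-58670207, plus strand): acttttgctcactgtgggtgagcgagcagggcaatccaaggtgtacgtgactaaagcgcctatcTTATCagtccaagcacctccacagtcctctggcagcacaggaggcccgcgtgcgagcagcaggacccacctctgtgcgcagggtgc
Hemgn (chr4:46404184-46404333, minus strand): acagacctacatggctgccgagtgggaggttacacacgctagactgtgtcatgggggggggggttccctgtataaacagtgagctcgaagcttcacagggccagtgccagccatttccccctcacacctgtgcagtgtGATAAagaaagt
Klf1 (chr8:84901832-84901981, plus strand): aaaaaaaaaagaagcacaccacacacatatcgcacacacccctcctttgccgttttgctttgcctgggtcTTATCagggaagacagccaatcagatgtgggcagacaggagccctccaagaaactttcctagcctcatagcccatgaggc
Ermap (chr4:119189996-119190145, minus strand): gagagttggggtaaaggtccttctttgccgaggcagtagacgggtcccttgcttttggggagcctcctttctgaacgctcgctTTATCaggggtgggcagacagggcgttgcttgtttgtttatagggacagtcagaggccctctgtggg

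Of the 463 genes that fell, 30 are on the 3 erythroid lists and 390 on none of the gene lists used here. Day 4 I lay at 3 times day 4 II or more (as RPKM + 1) in 85 of the 463 genes, 18.4%, against 4.58% of all tested genes and 0.77% of those that rose. None of the 30 erythroid genes that fell had it. Receptor genes tilt in the same direction, with a pooled level of 2.92 RPKM in day 4 I and 0.574 RPKM in day 4 II, against 2.90 and 4.39 RPKM at day 0. As RPKM + 1 this pooled level does not reach 3 times either. Adding 1 narrows the ratio of low genes, among them the erythroid gene Ank1 at 1.54 and 0.421 RPKM at day 4. Of the 18 receptor genes that reached the floor 7 fell and 2 rose, beside 5.72% and 11.2% of all tested genes. Lars2, the mitochondrial leucyl-tRNA synthetase, took 4.63% and 11.2% of all day 0 reads and 0.180% and 0.144% of day 4 reads, with 6489 and 15638 then 252 and 202 RPKM (-5.47 ± 1.0, adjusted p = 0.00145). Whether these reads come from its messenger RNA was not tested, and no alternative took Lars2 out of the totals. Zfp488, a zinc finger gene known from oligodendrocytes, had 4945 and 4399.7 RPKM at day 0, against 879 and 195 RPKM at day 4 (-3.49, adjusted p = 0.0251). Ap1s3, an adaptor subunit of vesicle coats, had 703 and 509 then 74.3 and 15.7 RPKM (-4.08 ± 0.70), and Zfp277 had 732 and 309.9 then 58.5 and 14.3 RPKM (-3.99 ± 0.69). In these last 3 genes the day 4 libraries differed by over 4-fold, in the order seen for receptor genes. The lens gap junction gene Gje1 (109 and 85.8 then 6.94 and 1.05 RPKM), the neural adhesion gene Cntn2 (48.5 and 45.2 then 4.93 and 0.793 RPKM) and Teddm1b (132 and 60.2 then 10.4 and 1.95 RPKM) showed the tilt too. Among genes that fell, 241 of 463 (52.1%) reached 5 times the pooled receptor level in both day 0 libraries, while among genes that rose 873 of 904 (96.6%) reached it in both day 4 libraries. Subtracting this reference level from every value gave 0 calls in either direction, with 2276 genes at an unadjusted p under 0.05.

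**Figure D3:**
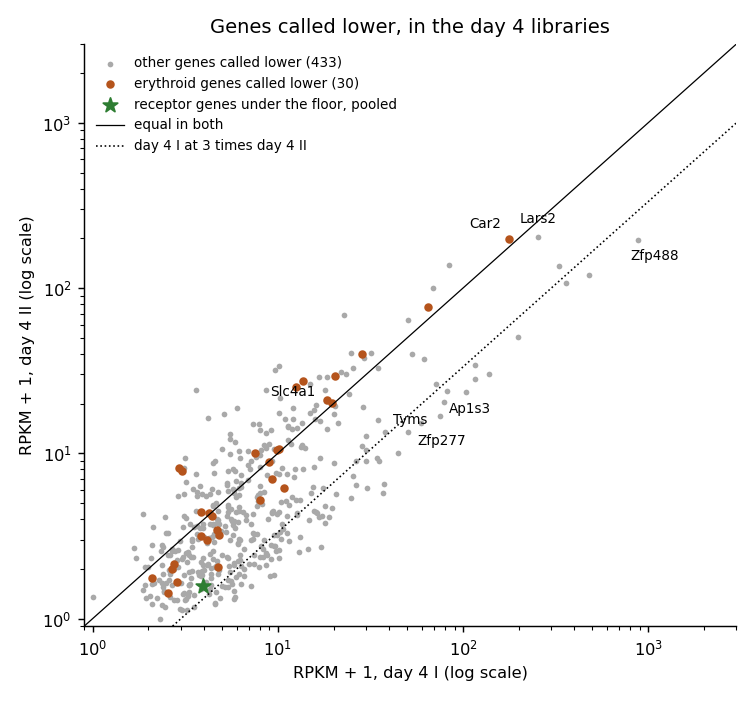
RPKM + 1 in day 4 I (x axis) against day 4 II (y axis), both on log scales, for the 463 genes called lower. The 30 erythroid genes (orange) lie along the solid line of equal values and none lies at or below the dotted line where day 4 I is 3 times day 4 II, whereas 85 of the other genes (grey) lie at or below it, and the pooled level of the 1440 receptor genes (green star) lies between the lines.

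Other named falls were of genes of other marrow cells. Jchain, which joins antibody chains in plasma cells, had 38.3 and 30.1 RPKM at day 0, against 1.39 and 0.864 RPKM at day 4 (-4.05 ± 0.54, adjusted p = 0.000174). Xbp1, a factor of plasma cells and of secretory stress in many cells, rose from 68.9 and 30.6 to 273 and 454 RPKM (2.91 ± 0.62), and only these 2 of 9 plasma cell genes could be tested. Stromal genes fell in 4 of 9 cases, beside 5.72% of all tested genes. With no floor 0 of 21 fell, with a median of -0.49 beside -0.36 for all genes. With an RPKM of at least 1 in 2 libraries 0 of 19 fell. Medians over the 9 were low, 6.90 and 10.5 then 3.44 and 1.36 RPKM. The pooled receptor level was 2.90 and 4.39 then 2.92 and 0.574 RPKM. Day 4 I lay above day 4 II in both sets, and whether this tilt has a part in the stromal falls was not tested. Cxcl12, the chemokine that retains blood progenitors in marrow, had 8.03 and 13.3 then 1.46 and 0.181 RPKM (-2.73 ± 0.68, adjusted p = 0.0102). The leptin receptor Lepr, a marker of marrow stroma, and the collagens Col1a1 and Col1a2 fell as well (-2.34, -1.69 and -2.01). Spp1, or osteopontin, which macrophages also make, rose from 5.14 and 10.5 to 97.6 and 295 RPKM (4.35 ± 0.59, adjusted p = 0.000202). The count of 4 stromal falls was 2 without day 0 II, 2 without day 0 III and 0 without day 4 II. Of 22 B lineage genes 6 were tested and 0 passed in either direction. Of 22 T and NK cell genes 2 were tested and 0 passed. At this depth most lymphoid genes lay under the floor.

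Oxidative stress genes formed the largest group of rises relative to its size after the basophil and proton pump lists. Nfe2l2, or NRF2, is a transcription factor released when the sensor protein Keap1 is oxidised, and it drives genes of glutathione, thioredoxin, NADPH and heme breakdown. Of 23 tested response genes 15 rose and 0 fell, with a median log2 fold change of 2.65, and in 22 of 23 both day 4 libraries lay above both day 0 libraries. Slc7a11, the cystine importer that feeds glutathione synthesis, had 5.21 and 4.49 RPKM at day 0, against 149 and 433 RPKM at day 4 (5.45 ± 0.57, adjusted p = 3.63e-05). Hmox1, heme oxygenase, which breaks heme into iron, carbon monoxide and biliverdin, had 15.7 and 32.2 then 374 and 1518 RPKM (5.0 ± 0.69, adjusted p = 0.000205). Srxn1, which repairs oxidised peroxiredoxins, had 2.4 and 7.36 then 92.7 and 106 RPKM (4.23 ± 0.55), and the peroxiredoxin Prdx1 had 101 and 31.3 then 462 and 1278 RPKM (3.75 ± 0.73). For each of these genes the lower day 4 value was at least 4 times the higher day 0 value.

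Among further members, Nfe2l2 itself rose from 18.8 and 31.8 to 89.1 and 180.0 RPKM (2.33 ± 0.56, adjusted p = 0.00867), while its inhibitor Keap1 stood at 6.8 and 8.94 then 9.41 and 13.5 RPKM (adjusted p = 0.562). NADPH-making enzymes of the pentose phosphate pathway rose: Pgd by 3.61 and G6pdx by 2.48 on the log2 scale, with the later pathway enzyme Taldo1 at 2.65. Gclm, the regulatory subunit of glutathione synthesis, went from 50.6 and 43.1 to 141 and 343 RPKM (2.21 ± 0.60), whereas the catalytic subunit Gclc stood at 8.03 and 27.4 then 18.7 and 93.2 RPKM with the days overlapping (adjusted p = 0.167). Nqo1, a quinone reductase often read as a marker of NRF2, had 5.99 and 8.17 then 20.3 and 68.9 RPKM (2.27 ± 0.58, adjusted p = 0.0123). Day 4 II was the higher day 4 library in most members, and Hmox1 and Nqo1 differed by over 3-fold between the day 4 libraries. The count of 15 was 9 without day 4 II, with 0 falls without any single library. A day 4 or day 0 group left with 1 library is assumed to vary like the other group, here and below. The antioxidant core TGACNNNGC, added after the data were seen, was found in 37.0% of 27 promoter windows of the list, against 14.6% over tested genes and 12.4% over all promoters. In the 150 bases before the start 4 of 15 windows of called members held it (26.7% against 8.16%), and the 3 with the smallest adjusted p are shown from GRCm38.p6 to give the letters behind that share, with the core in capitals on either strand.
Prdx1 (chr4:116685449-116685598, plus strand): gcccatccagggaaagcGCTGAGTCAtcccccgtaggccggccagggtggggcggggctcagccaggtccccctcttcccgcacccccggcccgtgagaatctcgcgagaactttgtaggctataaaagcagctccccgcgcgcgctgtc
Mgst1 (chr6:138140377-138140526, plus strand): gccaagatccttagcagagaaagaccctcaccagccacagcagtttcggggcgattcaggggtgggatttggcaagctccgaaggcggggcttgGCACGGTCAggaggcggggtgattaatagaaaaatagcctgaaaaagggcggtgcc
G6pdx (chrX:74428881-74429030, minus strand): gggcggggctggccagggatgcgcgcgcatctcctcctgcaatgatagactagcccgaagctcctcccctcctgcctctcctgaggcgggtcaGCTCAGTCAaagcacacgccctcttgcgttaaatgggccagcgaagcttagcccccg

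Iron genes are given by role. Among genes of export, storage and heme breakdown, Slc40a1, or ferroportin, the cellular iron exporter, had 15.6 and 18.2 RPKM at day 0, against 345 and 366 RPKM at day 4 (4.32 ± 0.55, adjusted p = 0.000129), and Slc11a1, the phagosomal metal transporter of macrophages and granulocytes, rose by 2.47 on the log2 scale. Hmox2, the constitutive heme oxygenase, had 14.7 and 17.2 then 105 and 149 RPKM (2.90 ± 0.53). The ferritin chains were among the 10 most abundant day 4 transcripts, Fth1 with 1653 and 369 then 8282 and 7941 RPKM (3.37 ± 1.18, adjusted p = 0.0575) and Ftl1 with 2340.5 and 629.8 then 11280 and 10370 RPKM (3.15 ± 1.28, adjusted p = 0.103). Neither ferritin passed the test, although the lower day 4 value was over 4 times the higher day 0 value for both. Among genes of uptake, Tfrc, the transferrin receptor, went from 69.4 and 139.7 to 19.4 and 28.4 RPKM (-2.02 ± 0.55) and Steap3, the ferrireductase of red cell precursors, from 18.5 and 33.9 to 1.38 and 1.72 RPKM (-3.36 ± 0.56, adjusted p = 0.000742). Of 16 tested iron genes 4 rose and 2 fell, and 8 rose without day 0 II, while 1 fell without either day 4 library.

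The lysosome digests material at low pH, which a multi-subunit proton pump (V-ATPase) maintains. Of 17 tested pump genes 13 rose and 0 fell, with a median of 2.37 and medians over members of 26 and 26.8 RPKM at day 0, against 99.2 and 141 RPKM at day 4. The catalytic subunit Atp6v1a had 15.6 and 18.6 RPKM at day 0, against 47.6 and 73.6 RPKM at day 4 (1.74 ± 0.52, adjusted p = 0.0275). The proteolipid Atp6v0c of the membrane ring had 175 and 82.5 then 504 and 853 RPKM (2.44 ± 0.70), and the accessory subunit Atp6ap1 had 80.7 and 75.3 then 493 and 614 RPKM (2.80 ± 0.63, adjusted p = 0.00537). The 4 others did not pass. Atp6v0d2, a subunit known from osteoclasts and macrophages, stood at 3.71 and 22.8 then 3.51 and 1.56 RPKM (adjusted p = 0.125) and the membrane chains Atp6v0a1 and Tcirg1 and the subunit Atp6v1h gave log2 fold changes of 0.65, 1.15 and 1.08. The count of 13 was 3 without day 4 II.

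Among lysosomal enzymes and membrane proteins 18 of 36 rose and 1 fell, with a median of 1.61. Ctsd, an aspartic protease, had 137 and 64.6 RPKM at day 0, against 1561 and 2363 RPKM at day 4 (4.34 ± 0.75, adjusted p = 0.000945). Lipid-handling enzymes rose with it: the acid lipase Lipa (8.06 and 2.06 then 68.6 and 100.2 RPKM) and the palmitoyl thioesterase Ppt1 (12.5 and 17.7 then 93.4 and 175 RPKM). Tpp1, Neu1 and Hexa, a peptidase, a sialidase and a hexosaminidase, rose by 3.67, 3.27 and 2.73 on the log2 scale. The member that fell was Ctsc, the protease that activates granule serine proteases, from 18.7 and 41.9 to 8.29 and 8.03 RPKM (-1.67 ± 0.54, adjusted p = 0.0402). The count of 18 was 7 without day 4 II, 6 under quantile normalization and 9 with no floor. Autophagy genes rose in 6 of 22 cases, with 0 falls and a median of 0.94. They included the conjugation enzyme Atg7 (4.58 and 1.87 then 49.3 and 44.9 RPKM, 3.59 ± 0.53), the cargo receptor Sqstm1 (29.8 and 45.7 then 126 and 446 RPKM), the membrane markers Map1lc3b and Gabarap (2.81 and 2.68) and Tfe3 (2.17 ± 0.52), a factor that binds lysosomal gene promoters. That count was 1 without day 4 II.

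The E-box CACGTG, which Tfe3 and its relatives bind, was found in 32.4% of 34 promoter windows of lysosomal enzymes and 25.0% of 16 windows of the pump, against 10.2% over all tested genes and 7.15% over all promoters. Genes called higher held it in 12.1% of windows and genes called lower in 11.6%. The longer form TCACGTGA was in 11.8% and 18.8% of windows of these lists and in 2.03% of those of tested genes. In the 150 bases before the start 5 of 27 windows of called members held CACGTG (18.5% against 6.45% over tested genes). The 4 with the smallest adjusted p are shown from GRCm38.p6, since pump and enzyme genes rose together, with the E-box in capitals.
Ctsd (chr7:142387828-142387977, minus strand): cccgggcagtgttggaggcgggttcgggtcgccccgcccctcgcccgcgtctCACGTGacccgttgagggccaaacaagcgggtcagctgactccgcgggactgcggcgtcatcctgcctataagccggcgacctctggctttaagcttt
Ctsa (chr2:164833623-164833772, plus strand): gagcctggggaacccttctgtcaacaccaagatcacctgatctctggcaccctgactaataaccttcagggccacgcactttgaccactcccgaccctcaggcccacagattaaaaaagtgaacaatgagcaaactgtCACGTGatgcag
Atp6v0b (chr4:117887330-117887479, minus strand): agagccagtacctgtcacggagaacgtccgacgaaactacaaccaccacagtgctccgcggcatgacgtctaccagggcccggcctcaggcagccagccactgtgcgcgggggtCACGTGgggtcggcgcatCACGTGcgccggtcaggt
Mcoln1 (chr8:3500369-3500518, plus strand): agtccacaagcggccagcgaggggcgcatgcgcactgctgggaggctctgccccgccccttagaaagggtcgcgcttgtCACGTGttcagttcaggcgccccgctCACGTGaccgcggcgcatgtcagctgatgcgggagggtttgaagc

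**Figure D4:**
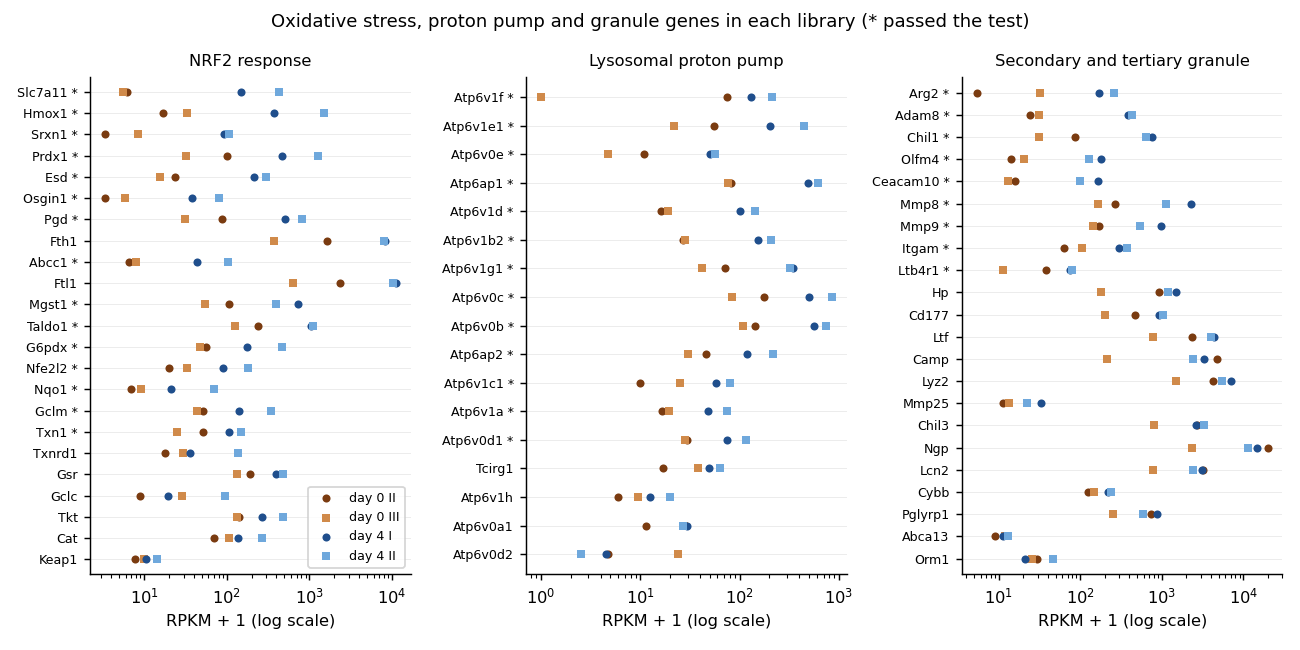
RPKM + 1 (log scale, x axis) of each tested member of 3 lists (rows, in order of log2 fold change) in day 0 II, day 0 III, day 4 I and day 4 II, one symbol per library. A star marks members that passed the test, 15 of 23, 13 of 17 and 9 of 22 from left to right. The abundant granule genes Ngp and Camp have day 0 II to the right and day 0 III to the left of both day 4 libraries.

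Granulocyte genes are given by stage, and no test compared the stages. Of 16 tested primary granule and progenitor genes 2 rose and 1 fell, shares near the 11.2% and 5.72% of all tested genes, with a median of 0.26, against 6 rises without day 0 II, 4 falls without day 0 III, and at most 1 rise and no fall without either day 4 library. That median was 1.21 without day 0 II and -0.75 without day 0 III. The shares of all tested genes are not matched for level. Median levels over the tested members of this list were 168 and 52.5 then 118 and 133 RPKM. At 100.0 RPKM or more 35.2% of tested genes rose and 8.28% fell. Mpo, myeloperoxidase, had 1860.2 and 339 RPKM at day 0, against 447 and 641 RPKM at day 4 (adjusted p = 0.693). Elane, neutrophil elastase, had 2774 and 241 then 835 and 1119 RPKM (adjusted p = 0.898). In both genes day 0 II lay above and day 0 III below the day 4 libraries. Of 22 secondary and tertiary granule genes 9 rose and 0 fell, with a median of 1.65, and in 15 of 22 the day 4 libraries lay above. Their median levels were 145 and 145 then 814 and 564 RPKM, for which 35.2% is the nearer share of rises. Mmp8, the neutrophil collagenase, had 264 and 165 then 2308 and 1118 RPKM (2.94 ± 0.80, adjusted p = 0.017), and Mmp9, the gelatinase of tertiary granules, had 168 and 143 then 984 and 546 RPKM (2.23 ± 0.70, adjusted p = 0.0357). Olfm4, a secondary granule protein, had 13.2 and 19.3 then 180.4 and 128 RPKM (3.17 ± 0.53) and Chil1 had 86.2 and 30 then 760.4 and 641 RPKM (3.75 ± 0.67). The most abundant members did not pass: Ltf, lactoferrin, stood at 2337 and 779 then 4411 and 4022 RPKM (adjusted p = 0.345) and Camp, the cathelicidin, at 4711 and 212 then 3251 and 2427 RPKM (adjusted p = 0.442). The count of 9 was 18 without day 0 II, 5 without day 4 I and 5 without day 4 II.

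Mature neutrophil genes rose in 9 of 25 cases and fell in 1, with a median of 1.44. Their median levels were 55.0 and 33.4 then 204 and 121 RPKM. Of tested genes 36.3% rose at 50 to 100 RPKM and 35.2% at 100 RPKM or more. The share of this list that rose is near those shares. With no floor 3 of 31 rose, and under quantile normalization 2 of 25. Fpr1, the receptor for bacterial formyl peptides, had 16.4 and 9.58 RPKM at day 0, against 643 and 415 RPKM at day 4 (5.25 ± 0.57, adjusted p = 4.36e-05). Padi4, which citrullinates histones, and Csf3r, the receptor for G-CSF, rose by 3.12 and 2.39 on the log2 scale. Cxcr2, the chemokine receptor of released neutrophils, stood at 171 and 87.5 then 279 and 115 RPKM (adjusted p = 0.594). The member that fell was Ifitm1 (32.8 and 30.5 then 14.1 and 4.75 RPKM, -1.81 ± 0.55), an interferon-inducible membrane protein. The count of 9 was 17 without day 0 II, 4 without day 4 I and 5 without day 4 II. The share of granulocyte proteins in day 0 III, 1.36% of reads, moves with these counts, and its part in them was not tested beyond leaving the library out: without day 0 III 8 secondary and tertiary granule genes and 10 mature neutrophil genes rose.

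Of 16 Fc receptor and ITAM adaptor genes 8 rose and 0 fell (median 1.84), among them the adaptor Fcer1g (292 and 86.7 then 1254 and 1279 RPKM, 2.98 ± 0.78), the low-affinity IgG receptor Fcgr3 (36.2 and 29 then 191 and 179 RPKM, 2.48 ± 0.55) and the activating receptors Trem1 and Clec5a (2.62 and 2.62). Lilrb4a, an inhibitory receptor, reached 1439.7 and 1409 RPKM at day 4 against 158 and 215 RPKM at day 0 (2.94 ± 0.75, adjusted p = 0.0124). Of 23 innate sensors and adaptors 10 rose and 0 fell (median 1.16). Clec4n, or Dectin-2, a sensor of fungal mannans, had 0 and 3.92 then 63.9 and 107 RPKM (5.24 ± 0.65, adjusted p = 0.000124) on 0 and 1 reads at day 0 and 141 and 664 at day 4. The related lectins Clec4d and Clec4e and the endosomal receptors Tlr13 and Tlr7 rose by 2.90, 1.99, 3.01 and 2.16 on the log2 scale. Of 26 cytokine and growth factor receptors 8 rose and 1 fell, Epor. Csf2ra, the GM-CSF receptor alpha chain, had 45.2 and 65.1 then 267 and 229 RPKM (2.17 ± 0.58), while Csf1r, the M-CSF receptor, stood at 11.6 and 17.3 then 11.7 and 21.4 RPKM (adjusted p = 0.871). Tnfrsf1a and Il10rb, receptors for TNF and IL-10, rose by 2.25 and 2.22. The counts of 8, 10 and 8 were lower without single day 4 libraries: 3 without day 4 I and 3 without day 4 II, 3 without day 4 II, and 2 without day 4 I and 2 without day 4 II. The last count was 3 with no floor and 0 under quantile normalization, and 4 of these receptors fell without day 0 II.

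Of 21 basophil and mast cell genes 7 were tested and 6 rose, with a median of 2.09. Members high at day 4 alone could reach the floor, and with no floor 3 of 21 rose and the median was 0.72, and under quantile normalization 2 of 7 rose. Prss34, a basophil protease, had 30.6 and 0 RPKM at day 0, against 232 and 439 RPKM at day 4 (5.83 ± 0.98, adjusted p = 0.000847), which rested on 12 and 0 reads at day 0 and 386 and 2057 at day 4. Hdc, which makes histamine, had 99 and 56 then 252 and 410.1 RPKM (2.09 ± 0.62, adjusted p = 0.027). The chemokines Ccl3 and Ccl4, which many activated myeloid cells release, rose from 4.03 and 5.5 to 61.3 and 219.8 RPKM (4.36 ± 0.59) and from 4.27 and 8.74 to 34.3 and 215 RPKM (3.61 ± 0.68), and 4 of the 6 genes that rose (Ccl3, Ccl4, Osm and Alox5) are used by other myeloid cells too. The defining members Mcpt8 (8.66 and 11.8 then 23.9 and 19.8 RPKM) and Cpa3 (4.26 and 0 then 11.1 and 21.1 RPKM) lay under the floor. Without day 4 II the count of 6 was 2. Eosinophil genes went the other way in 3 of 5 cases, with 1 rise (Alox15), beside 5.72% of all tested genes lower and 11.2% higher. Epx, eosinophil peroxidase, fell from 24.2 and 9.42 to 1.9 and 4.53 RPKM (-2.01 ± 0.60, adjusted p = 0.027). The ribonuclease Ear1 (-2.23) and Gata1, shared with the erythroid lineage, also fell. With no floor 1 of 11 fell, with a median of -0.47 beside -0.36 for all genes. Under median-ratio scaling 1 of 5 fell and under quantile normalization 0. With a floor of 10 reads 1 member was tested and not called (log2 fold change 0.0075). Without day 4 I 1 eosinophil gene fell. Platelet genes rose in 3 of 11 cases, led by Pf4, platelet factor 4 (5.27 and 0 then 22.4 and 279 RPKM, 5.01 ± 0.89), and Plek, a major substrate of protein kinase C in platelets and leukocytes (23.7 and 27.9 then 299 and 420.1 RPKM, 3.73 ± 0.56). Most of the Pf4 signal was in day 4 II. Pf4 reached the floor only through its day 4 values, as any platelet gene high at day 4 alone could. With no floor 2 of 21 platelet genes rose and the median was 0.63, against 1.05 as tested. Under quantile normalization 1 of 11 rose and under median-ratio scaling 5. The count of 3 was 5 without day 0 III and 5 without day 4 I.

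Of 20 monocyte genes 6 fell and 3 rose, beside 5.72% and 11.2% of all tested genes, with a median of -0.64. The share that rose is near that of all tested genes. Ccr2, the chemokine receptor of inflammatory monocytes, had 36.6 and 79.5 RPKM at day 0, against 9.59 and 2.74 RPKM at day 4 (-3.13 ± 0.59, adjusted p = 0.00176). Fn1, fibronectin, had 37.4 and 90 then 3.81 and 0.961 RPKM (-4.27 ± 0.59, adjusted p = 0.000205), and F13a1, a coagulation factor chain of monocytes, 57.7 and 80.7 then 19 and 16.2 RPKM (-1.90 ± 0.52). The factors Klf4 and Klf2 and the membrane protein Ms4a6c fell, with log2 fold changes of -2.85, -2.07 and -2.38. Lgals3, or galectin 3, which macrophages carry in quantity, rose from 129.7 and 76.9 to 912 and 1298 RPKM (3.43 ± 0.70, adjusted p = 0.00304), with the integrin chain Itgam (2.04) and the endotoxin co-receptor Cd14 (14.5 and 0 then 29.3 and 118 RPKM). Without day 4 II 1 monocyte gene rose and 3 fell. Without day 0 II 5 rose.

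Macrophage genes rose in 8 of 18 cases, with 0 falls and a median of 1.44. With no floor 6 of 31 rose and the median was -0.02, with an RPKM of at least 1 in 2 libraries 7 of 30 rose and it was -0.06, and under quantile normalization 5 of 18 rose. The median of 1.44 thus holds only for members that reached the floor, which values high at day 4 alone could do. Gpnmb, a glycoprotein of lipid-laden macrophages, had 4.89 and 3.34 RPKM at day 0, against 86.2 and 62 RPKM at day 4 (3.87 ± 0.51, adjusted p = 0.000174). Creg1, a secreted lysosomal glycoprotein, had 54.4 and 83.4 then 699 and 1220.5 RPKM (3.76 ± 0.67), and Cd68 had 15 and 17.6 then 171 and 88.4 RPKM (2.85 ± 0.54). The tetraspanins Cd9 and Cd63 rose by 3.33 and 3.66 on the log2 scale. Genes that define tissue macrophages did not pass: Adgre1, which encodes the F4/80 antigen, stood at 8.43 and 1.72 then 6.58 and 4.31 RPKM (adjusted p = 0.77), and the complement gene C1qa, under the floor, at 0 and 0 then 2.71 and 0.960 RPKM. Of the 8 that rose, Cd63, Cd68 and Ctsb are also on the lysosomal list, Slc40a1 on the iron list and Clec4n on the sensor list.

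Few dendritic cell genes passed in either direction, beside 11.2% of all tested genes higher and 5.72% lower. At 10 to 20 RPKM 7.84% of tested genes rose and 6.91% fell. With so few members tested, the counts here cannot be told from these shares. Of 15 conventional dendritic cell genes 1 rose, Ffar2, and 0 fell, with a median of -0.98. Cd74, the invariant chain of MHC class II, stood at 451 and 282 RPKM at day 0, against 198 and 32.1 RPKM at day 4 (-2.14 ± 0.75, adjusted p = 0.0579), the days not overlapping. H2-Aa, a class II alpha chain, stood at 21.4 and 17.2 then 22 and 2.5 RPKM (adjusted p = 0.26), and Irf8, a factor both dendritic cell types need, at 14.9 and 15.2 then 7.5 and 4.78 RPKM (adjusted p = 0.131). Itgax (4.16 and 0 then 6.4 and 2.03 RPKM), Zbtb46 (2.4 and 4.91 then 3.29 and 0.402 RPKM) and Siglech (2.9 and 0 then 11 and 2.84 RPKM), defining genes of conventional and plasmacytoid dendritic cells, lay under the floor. Of 11 plasmacytoid genes 1 rose, Tlr7, and 0 fell, with a median of -0.47. With so few genes above the floor, smaller differences in these lists were not detectable at this depth.

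Genes of DNA replication fell in 8 of 28 cases, with 0 rises, a median of -1.28 and 22 of 28 with both day 0 libraries above both day 4 libraries. Mcm2, a subunit of the replicative helicase, had 69.8 and 107 RPKM at day 0, against 7.6 and 12.2 RPKM at day 4 (-3.04 ± 0.53, adjusted p = 0.000946), and Mcm7 had 63.3 and 68.8 then 9.17 and 32.9 RPKM (-1.85 ± 0.58). Ccne1, the cyclin of the entry into S phase, had 30.1 and 29.2 then 6.36 and 3.32 RPKM (-2.44 ± 0.52, adjusted p = 0.00416). Uhrf1, which guides maintenance DNA methylation, and Rrm1, of ribonucleotide reductase, fell, with log2 fold changes of -2.13 and -1.97. Tyms, thymidylate synthase, had 357 and 220.1 then 37.1 and 12.5 RPKM (-3.63 ± 0.61), but its pseudogene Tyms-ps moved alike (315 and 174 then 29.4 and 5.2 RPKM) and the 2 can share reads, so their values are uncertain. Mitotic genes fell in 2 of 30 cases, Cenpf (17.2 and 22.9 then 2.97 and 2.74 RPKM, -2.44 ± 0.53) and Birc5 (-1.60 ± 0.52), a share near the 5.72% of all tested genes, with a median of -0.54. Mki67, the proliferation marker, stood at 56.9 and 162 then 18.8 and 44.9 RPKM (adjusted p = 0.0675). Without day 0 II 6 mitotic genes fell and without day 4 II 0. The replication count of 8 was 14 without day 0 II, 3 without day 4 I and 3 without day 4 II, and the median of the mitotic list turned to 0.09 under median-ratio scaling. E2F cores TTCCCGC or TTGGCGC stood in 48.5% of 33 promoter windows of the replication list and in 31.25% of 16 windows of the erythroid transcription factor list, against 12.1% over tested genes.

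Targets of p53, the factor that stops division or triggers death after damage, rose in 6 of 16 cases and fell in 1 (median 0.77). Bax, a killer protein of mitochondria, had 13 and 8.89 RPKM at day 0, against 88.4 and 179 RPKM at day 4 (3.43 ± 0.54, adjusted p = 0.000547). Mdm2, which degrades p53, had 5.89 and 20.1 then 65.1 and 153 RPKM (3.07 ± 0.61), and Cdkn1a, the cycle inhibitor p21, had 1.17 and 7.16 then 15.7 and 19.9 RPKM (2.15 ± 0.62, adjusted p = 0.0229). The death receptor Fas rose (2.62), while Tnfrsf10b, another death receptor, fell from 48.2 and 16 to 5.55 and 0.807 RPKM (-3.07 ± 0.66), with day 4 I over 3 times day 4 II. Leaving out each library in turn, 4 to 6 of these genes rose, and without day 4 II 0 fell.

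Of 20 glycolysis genes 9 rose and 0 fell (median 1.76). Slc2a3, a glucose transporter, had 31.9 and 34.9 RPKM at day 0, against 293 and 279.7 RPKM at day 4 (3.06 ± 0.56, adjusted p = 0.00141). Slc16a3, the lactate exporter, had 22.8 and 17.2 then 112 and 73.7 RPKM (2.14 ± 0.53), and the regulatory enzyme Pfkfb4 had 10 and 13.2 then 66.4 and 68.8 RPKM (2.45 ± 0.51). Ldha, which makes lactate, stood at 268 and 138 then 406 and 379.9 RPKM (adjusted p = 0.321). Of 16 cholesterol genes 7 rose and 0 fell (median 1.41), led by the sterol enzymes Msmo1 (5.21 and 2.67 then 35.3 and 31.8 RPKM, 2.85 ± 0.52) and Sc5d (2.14 ± 0.51). Plin2, which coats lipid droplets, rose from 19.7 and 36.9 to 645 and 691 RPKM (4.58 ± 0.60, adjusted p = 0.00017). The glycolysis count was 14 without day 0 II, 5 without day 4 I and 3 without day 4 II, and the cholesterol count 3 without day 4 I and 1 without day 4 II. Respiratory chain genes passed in 1 of 25 cases, Cox7a2, with 9 rises without day 0 II, and ribosomal protein genes fell in 3 of 48, Rps4x, Rpl12 and Rpl5, a share near that of all tested genes. Ribosomal counts turned on the day 0 libraries, with 28 of 48 lower without day 0 III, 11 higher without day 0 II and 0 called without either day 4 library, and their median turned from -0.41 to 0.26 under median-ratio scaling.

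Stress and early response genes were called in both directions, beside 11.2% of all tested genes higher and 5.72% lower. Of 16 ATF4 and integrated stress genes 3 rose and 3 fell, 1 rose without day 4 II and 5 fell without day 0 II. Ddit3, or CHOP, had 0 and 7.28 RPKM at day 0, against 42.9 and 56.6 RPKM at day 4 (4.13 ± 0.72, adjusted p = 0.00101), and Slc3a2, the partner chain of amino acid transporters such as Slc7a11, had 20.2 and 13.2 then 63 and 125 RPKM (2.37 ± 0.55). Its other partner Slc7a5, a transporter of large neutral amino acids, fell from 31.3 and 65.9 to 4.73 and 2.19 RPKM (-3.44 ± 0.55), and Cebpb, a factor of emergency granulopoiesis and macrophages, from 24.7 and 80.1 to 1.46 and 3.11 RPKM (-3.84 ± 0.59, adjusted p = 0.000417). Among immediate early genes 5 of 16 fell and 2 rose, the rises near the share of all tested genes. Fos had 195 and 242 then 21.7 and 67.6 RPKM (-2.47 ± 0.62), Egr1 43.4 and 64 then 2.62 and 23.2 RPKM (-2.52 ± 0.68) and Myc 17.7 and 12.6 then 2.18 and 5.74 RPKM (-1.78 ± 0.57), while Ier3, an early gene that limits cell death, rose from 2.84 and 5.81 to 80.6 and 217 RPKM (4.70 ± 0.57, adjusted p = 0.000111). The count of 5 was 1 without day 4 I and 3 without day 4 II. Of 22 heat shock and chaperone genes 1 rose, Dnaja1, and 2 fell, Calr and Hspd1, and without either day 4 library 0 passed. Among 19 myeloid transcription factors, Spi1, or PU.1, rose from 92.9 and 47.5 to 218 and 285 RPKM (1.89 ± 0.60), Bhlhe40 rose by 4.14 on the log2 scale, and Cebpb and Klf4 fell. Cebpe, which drives secondary granule genes, stood at 80.1 and 51.2 then 101 and 146 RPKM (adjusted p = 0.292). Bhlhe40 and Ddit3 had no read in a day 0 library each, so their folds rest on few day 0 reads. Ier3 had 1 and 1 reads at day 0 and 120 and 910 at day 4. The day 0 values of Ier3 and Ddit3 lay under the floor, which both genes reached only through their day 4 values.

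The remaining lists passed in few members, beside 11.2% of all tested genes higher and 5.72% lower. Of 20 interferon-stimulated genes Ifi27 rose and Rsad2 and Xaf1 fell, and in 12 of the 20 day 4 I lay at 3 times day 4 II or more. Without day 0 III 5 rose, and without day 4 II 3 rose and 0 fell. Of 13 MHC class I and peptide loading genes 1 rose, H2-T23, a nonclassical class I chain. Of 13 inflammatory cytokines and chemokines Vegfa, a growth factor for vessels, and Osm rose beside Ccl3 and Ccl4, and Tgfb1 fell. Of 9 cystatins, serpins and annexins 3 rose, Cstb, Slpi and Anxa2. Without day 0 II 5 MHC class I genes and 5 cystatins and serpins rose, without day 4 I 0 and 1, and without day 4 II 2 cytokine genes rose. Of 25 actin cytoskeleton genes 2 rose, Arpc3 and Capg, against 14 without day 0 II. In 16 of the 25 both day 4 libraries lay above both day 0 libraries, beside 2571 of all 8098 tested genes.

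**Figure D5:**
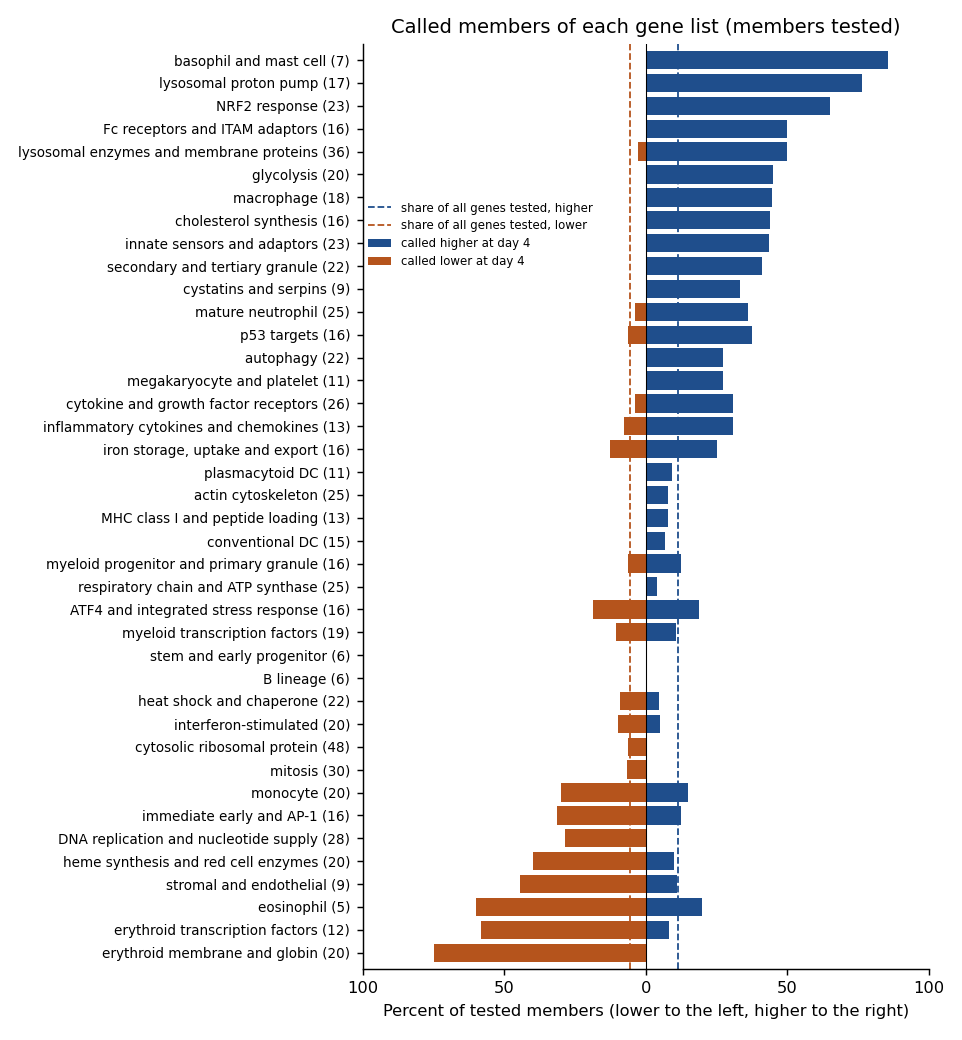
Percent of the tested members of each gene list with at least 5 tested members (number tested in brackets) that were called higher (blue, to the right) or lower (orange, to the left) at day 4. Dashed lines mark the shares over all genes tested, 11.2% higher and 5.72% lower, which are not matched for level. The basophil, proton pump and NRF2 lists reach furthest to the right and the erythroid membrane list furthest to the left, among the members that reached the floor.

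Other genes among the 20 largest rises follow. Rnf128, a ubiquitin ligase, had 1.13 and 0 RPKM at day 0, against 55.7 and 74.8 RPKM at day 4 (5.49 ± 0.56, adjusted p = 3.63e-05) on 1 and 0 reads at day 0 and 209 and 792 at day 4, and the pooled depth-scaled reads gave a ratio of 92.2 (exact 95% interval 16.5 to 3645, counting error only). Cstb, which inhibits cysteine cathepsins, had 20.6 and 0 then 225 and 348 RPKM (5.92 ± 0.90, adjusted p = 0.000391) on 4 and 0 reads at day 0 and 185 and 807 at day 4, a ratio of 22.8 (8.89 to 84.0). Ifit1bl2 had 12 and 1.88 then 225 and 273 RPKM (5.35 ± 0.63), and Mgst2, a microsomal glutathione transferase, 21 and 0 then 158 and 167 RPKM (5.12 ± 0.89). Slco4a1, an organic anion transporter, had 4.98 and 2.55 then 52.1 and 326 RPKM (4.84 ± 0.68), and Hnmt, which degrades histamine, 1.89 and 0 then 62.1 and 33.9 RPKM (4.79 ± 0.60). The median gene that rose had 16 reads over both day 0 libraries and 925 over both day 4 libraries, so most of these folds are set by few day 0 reads. Rnf128, Cstb, Mgst2, Hnmt, Clec4n, Pf4 and Ier3 had day 0 values under the floor and reached it only through their day 4 values. The floor itself thus favoured a call higher for them.

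The depth of day 0 limits what can be said of genes with no read there. Of 1933 genes with no read in either day 0 library 3 reached the floor. Such a gene can reach it only through its day 4 values, so that these 3 were called higher was set by the floor. Slc6a12, a transporter of betaine and GABA, had 43 and 1043 reads at day 4 and was at least 33.3-fold higher against a floor of 3 reads over both day 0 libraries. Trappc4, of a vesicle tethering complex, had 86 and 269 reads and was at least 10.9-fold higher. F2rl2, a thrombin receptor of platelets, had 7 and 316 reads and was at least 9.92-fold higher. Below the tested level, Nprl2, a regulator of mTORC1, was at least 6.91-fold higher and Procr, a receptor of stem and endothelial cells, at least 4.27-fold higher on the same scale, with no test. Without day 4 II the same ratio was 5.04 for Slc6a12, 10.1 for Trappc4, 0.821 for F2rl2, 3.05 for Nprl2 and 0.469 for Procr, so the bounds of F2rl2 and Procr rest on day 4 II alone. In the other direction 682 genes had no read in either day 4 library, none of them was tested, and their day 0 reads reached 5 at most. Counting reads alone, 2726 genes had under 3 reads in both day 0 libraries and at least 3 in both day 4 libraries. Of these 60 were tested, and 53 were called higher and 0 lower. They too reached the floor only through their day 4 values, so the floor favoured that direction. The reverse was seen in 18 genes, of which 1 was tested. Since the day 0 libraries are shallower than the day 4 libraries, the counts of 2726 and 18 cannot be read against each other.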

How the data were processed

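RNA-seq values of 4 libraries were used, 2 of day 0 and 2 of day 4. The authors deposited 1 table of RPKM values for 21761 genes with gene lengths, per the file headers. Builds and tools named in the submitters' processing notes are mm9, TopHat2 2.0.13 and SAMtools 1.1; no source used here gives the counter, annotation or strand setting. Every value times the gene's length gave whole reads after scaling (largest distance from a whole read among these libraries 1.49e-05), and totals are sums of these reads. Genes whose mean RPKM reached 3 reads in the shallowest library were tested with limma 3.58.1 in R 4.3.3 on log2(RPKM + 1) with a mean-variance trend (prior degrees of freedom 16.24, residual 2) and Benjamini-Hochberg adjustment over all 8098. A fold change on this scale understates that of low genes. Within the lists, 950 of 958 gene symbols were found. The members and lists were chosen with earlier results of these data known. Named genes are the 20 largest rises and 20 largest falls among called genes whose groups did not overlap; of each list up to 8 called members by adjusted p, up to 4 others by mean RPKM, and defining markers; and the 10 genes with most reads among those with no read on the other day or with the highest mean on a day. Outside this rule, and chosen after their values were seen, are Alas2, Atp6v0c, Atp6v1a, Atp6v1h, Ctsc, G6pdx, Gclc, Gclm, Ifitm1, Keap1, Mmp9, Nfe2l2, Nqo1, Rhag and Taldo1. Some genes that the rule takes are not reported here. The test was tested on simulated data. Alternatives were other scalings, floors, pseudocounts, voom, thinning, array weights, a robust fit, all 6 libraries and leaving out each library; receptor-level subtraction and the TGACNNNGC motif were chosen after seeing the data. Tables were made with Python 3.11.15, pandas 2.3.3, numpy 2.4.6, scipy 1.17.1 and matplotlib 3.10.9. The 2 day 7 libraries entered 1 alternative only.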

Additional observations from a re-analysis of the deposited data

How the results depend on the processing

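No paired analysis was possible because the day 0 and day 4 libraries share only the number II. Under 18 alternatives none of the 1367 calls took the opposite sign. For most alternatives this was fixed beforehand. Other floors, the robust and weighted fits and the 6 library fit keep the same group means. Groups that do not overlap keep their order with another pseudocount or without 1 library. Only the scalings, voom, thinning and subtraction could turn a sign. Against 904 genes called higher and 463 lower, all calls of an alternative numbered 408 and 144 with no floor, 463 and 178 with an RPKM of at least 1 in 2 libraries, 735 and 258 with a floor of 10 reads, 1044 and 265 under median-ratio scaling and 261 and 203 under quantile normalization. Leaving out each library in turn gave 331 to 1297 higher and 122 to 707 lower. Voom on the recovered reads, thinning and subtraction of the receptor-gene level gave 0 in both directions and 0 in every list, with smallest adjusted p of 0.052, 0.106 and 0.071 and with 1858, 1816 and 2276 genes at an unadjusted p under 0.05. The 15 erythroid membrane falls were 9 under median-ratio scaling and 11 to 19 without single libraries. The 15 NRF2 rises were 9 with no floor and 9 to 20 without single libraries. The 13 proton pump rises were 6 with no floor, 6 with an RPKM of at least 1, 8 under median-ratio scaling, 3 under quantile normalization and 3 to 14 without single libraries. The 8 replication falls were 4 with no floor, 4 with an RPKM of at least 1, 5 with a pseudocount of 0.1, 2 under median-ratio scaling, 4 under quantile normalization and 3 to 14 without single libraries. The cause of these moves was not tested.

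Among named genes, signs turned only in those that did not pass. Under median-ratio scaling the log2 fold change was 0.57 for Cd34, 0.38 for Kit and 0.10 for Mpo. Under quantile normalization it was 0.28 for Cd34, -0.0402 for Csf1r, -0.14 for Cxcr2 and -0.30 for Elane. Cd34 gave 0.24 after thinning and 0.40 after subtraction, and Adgre1 gave -0.23 with voom. Without single libraries it ran from -0.57 to 1.22 for Adgre1, -0.75 to 3.72 for Camp, -0.43 to 0.39 for Cd34, -0.25 to 0.56 for Csf1r, -0.0932 to 1.18 for Cxcr2, -1.52 to 2.00 for Elane, -2.53 to 0.19 for H2-Aa, -0.78 to 0.26 for Kit, -1.80 to 0.66 for Mpo, -0.62 to 2.48 for Ngp and -1.24 to 1.82 for S100a8. Over the genes whose values are given and all alternatives, 2277 of 3095 values kept their direction and side of the threshold, 734 lost the call, 60 gained it and 24 turned. Of 40 list medians 7 changed sign under another scaling. The depth of day 0 limits most folds.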

Other observations

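Interferon-induced genes differed between the day 4 libraries. Irf7, a factor of the interferon response, had 5.66 and 5.79 RPKM at day 0, against 50.9 and 7.36 RPKM at day 4. Day 4 I was at 3 times day 4 II or more in 12 of 20 tested interferon-stimulated genes, against 371 of all 8098 tested genes. Platelet genes showed the reverse order. Pf4, platelet factor 4, had 22.4 and 279 RPKM in day 4 I and day 4 II, and in 5 of 11 tested platelet genes day 4 II lay at 3 times day 4 I or more, against 71 of all tested genes. In 4 of 6 tested B lineage genes day 4 I lay at 3 times day 4 II or more. With 2 libraries these differences have no test.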
